A study of Mus musculus with 10 samples.

Results

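The circadian clock genes described here are Clock, Npas2, Per1, Per2, Per3, Cry1, Cry2, Nr1d1, Nr1d2 and Dbp, measured in adult mouse retina and newborn mouse cortex. Probes were taken as members where the platform annotation gave them 1 of these symbols and no other. This found 9 probes for 9 of the 10 genes, 1 probe per gene, among 33012 probes on the array. Per3 was not analysed here. The retina RNA was a pool of 350 adult C57/B6 mice, measured on 5 arrays. The cortex RNA was a pool of 19 mice at postnatal day 1, measured on 5 arrays, and served as a common reference in a comparison of array platforms. The series text gives the cortex mice as Swiss-Webster and the sample labels give them as C57/B6, and the titles of the retina arrays carry the letters P1, which the labels do not explain. No animal carried a named allele or treatment. The labels used here give neither an hour of collection nor a lighting schedule, so tissue, age, hour and any strain difference cannot be told apart in the values below. All 5 arrays of a tissue were repeats of 1 pool, so each p-value measures the spread between arrays and not between animals.

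The mammalian clock is a loop of transcription and repression that runs in most cells. CLOCK, or its paralogue NPAS2, pairs with BMAL1 and activates genes that hold E-box elements, among them the Per, Cry, Nr1d and Dbp genes. PER and CRY proteins accumulate and then repress their own activators, while the REV-ERB receptors, made by Nr1d1 and Nr1d2, and the ROR receptors act in opposite ways on the gene of BMAL1, Arntl. DBP and its relatives act at a further element, the D-box. The retina was among the first mammalian tissues outside the hypothalamus shown to hold its own clock, and levels of most of these transcripts depend on the hour.

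The array is a single-channel Applied Biosystems design read by chemiluminescence. Deposited intensities had array medians of 836 to 987 in retina and 1255 to 1341 in cortex. All values below are log2 intensities after quantile normalization, which gives the 10 arrays 1 common distribution, and each difference is retina minus cortex on that scale. Levels of different probes cannot be compared with each other, so each gene is described against itself. A probe is named higher or lower when limma gave a Benjamini-Hochberg adjusted p under 0.05 over all 33012 probes and the difference was at least 2-fold. By this rule 12.1% of all probes were higher in retina and 13.3% were lower, and the median difference over all probes was -0.01. The 95th percentile of 747 olfactory receptor probes, 10.61, served as a yardstick for dim signal. Marker genes went with the labels. All 4 measured rod genes (Pdc, Gnat1, Nrl and Pde6b) were higher in retina by 9.66 to 11.57, all 4 cone genes (Gnat2, Opn1sw, Arr3 and Pde6c) by 7.47 to 9.60, and all 3 measured genes of cortical projection neurons (Neurod6, Tbr1 and Bcl11b) were lower, with differences of -7.76 to -4.92. In cortex all of these rod and cone probes but Gnat1 were in the dim range, as were Neurod6 and Bcl11b in retina, so the size of those differences rests in part on signal not shown to lie above background.

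The promoters below are shown because E-boxes and D-boxes are among the elements through which clock proteins act on genes of the loop. Promoter windows of RefSeq (GRCm38.p6, 250 bases before to 50 after each listed start) were present for 8 of the 9 measured genes, all but Per2. The RefSeq gene spans of Clock, Per1 and Npas2 begin outside their windows, so not every annotated start was searched. They were searched on both strands for 5 motifs: the E-box CACGTG, the E'-box CACGTT, the D-box TTATGNAA, the cyclic AMP element TGACGTCA and the ROR element core TAGGTCA. Matches were found in 4 of the 8 genes. Per1 had an E-box starting 166 bases before 1 of its 2 listed starts and a D-box 24 bases before that start. Cry1 had an E-box and an E'-box, 60 and 79 bases before its start. Single E'-boxes lay 166 bases before the start of Cry2 and 28 before that of Nr1d1. Among all 32851 promoter windows, the E-box was present in 7.15%, the E'-box in 4.68%, the D-box in 3.38%, the cyclic AMP element in 1.79% and the ROR element core in 2.61%. Those shares are per motif and window, whereas Clock had 3 windows and Per1 had 2. The share of genes with any of the 5 motifs was not computed, so the 4 of 8 has no background here. Dbp and Npas2, the genes with the highest and the lowest difference, are shown beside them and held none of these letters in the window. Each line gives the 200 bases before the start, 5′ to 3′ along the gene, with matches on either strand in capitals.
Per1, chr11:69098749-69098948, plus strand: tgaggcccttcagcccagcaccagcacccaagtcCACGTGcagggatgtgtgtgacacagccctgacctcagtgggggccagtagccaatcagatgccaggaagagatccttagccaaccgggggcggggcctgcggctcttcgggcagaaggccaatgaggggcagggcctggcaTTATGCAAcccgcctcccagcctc
Cry1, chr10:85185055-85185254, minus strand: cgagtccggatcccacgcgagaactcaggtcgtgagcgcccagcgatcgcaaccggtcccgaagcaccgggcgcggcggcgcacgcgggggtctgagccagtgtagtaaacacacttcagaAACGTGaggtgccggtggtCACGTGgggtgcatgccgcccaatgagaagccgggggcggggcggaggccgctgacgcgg
Cry2, chr2:92434070-92434269, minus strand: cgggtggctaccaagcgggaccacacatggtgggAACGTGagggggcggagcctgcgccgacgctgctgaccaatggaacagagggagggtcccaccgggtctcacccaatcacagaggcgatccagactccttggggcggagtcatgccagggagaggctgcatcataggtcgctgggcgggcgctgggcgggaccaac
Nr1d1, chr11:98775378-98775577, minus strand: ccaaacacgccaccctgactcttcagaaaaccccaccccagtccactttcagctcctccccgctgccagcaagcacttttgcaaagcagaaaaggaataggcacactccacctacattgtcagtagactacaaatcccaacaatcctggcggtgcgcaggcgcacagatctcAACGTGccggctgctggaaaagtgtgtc
Dbp, chr7:45705047-45705246, plus strand: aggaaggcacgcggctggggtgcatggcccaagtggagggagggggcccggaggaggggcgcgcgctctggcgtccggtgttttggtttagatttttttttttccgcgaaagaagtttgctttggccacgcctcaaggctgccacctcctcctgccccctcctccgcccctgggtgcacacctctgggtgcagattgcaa
Npas2, chr1:39194072-39194271, plus strand: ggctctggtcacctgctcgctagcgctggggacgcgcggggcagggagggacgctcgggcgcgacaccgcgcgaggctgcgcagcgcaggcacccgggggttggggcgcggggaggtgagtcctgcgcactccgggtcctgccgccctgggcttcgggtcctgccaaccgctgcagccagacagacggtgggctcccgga

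Of the 9 clock genes measured, 6 were higher in adult retina than in newborn cortex (Dbp, Nr1d2, Per1, Cry1, Nr1d1 and Cry2), 1 was lower (Npas2) and 2 were not called (Clock and Per2). Without normalization 3 were higher, and without cortex replicate 5 there were 4. Per1 was in the dim range in both tissues. The background is 12.1% higher and 13.3% lower among all probes. The median difference over the 9 genes was 1.05, against -0.01 over all probes. In 7 of the 9 genes the 5 retina values and the 5 cortex values did not overlap, as held for 40.5% of all probes. Fewer cells that make a transcript and less of it per cell cannot be told apart in pooled tissue RNA.

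**Figure D1:**
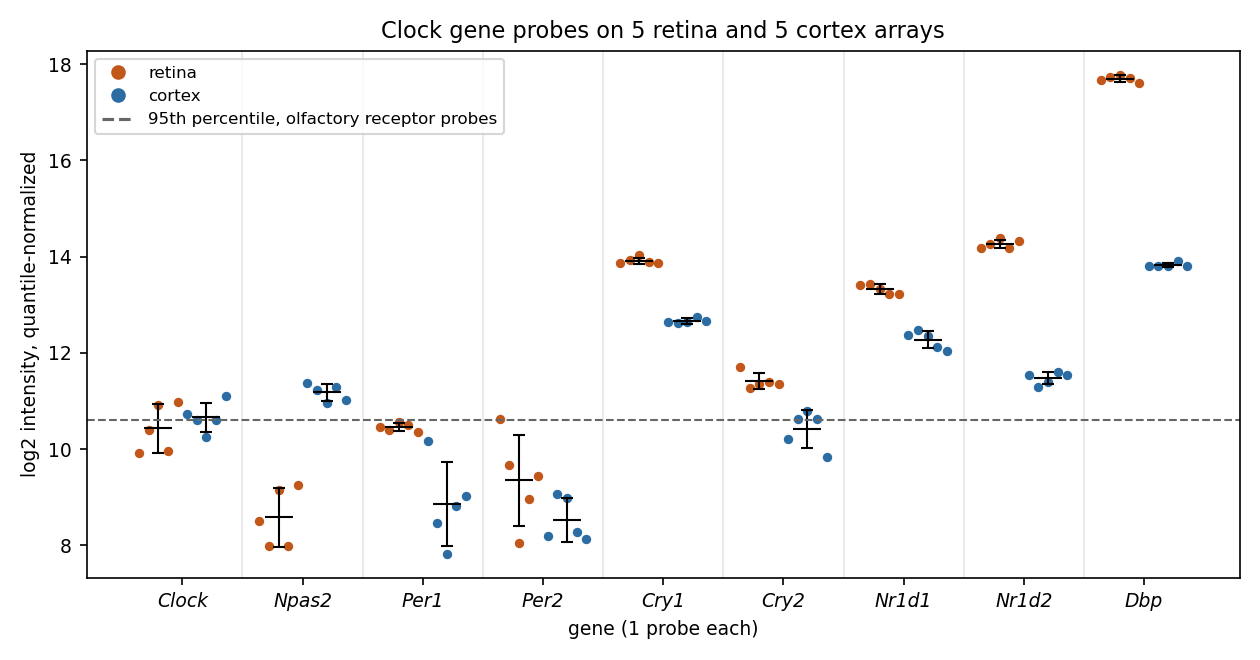
Each point is 1 array, with log2 intensity on the vertical axis and the 9 genes along the horizontal axis, and black marks give the mean and SD of 5 arrays. Retina lies above cortex without overlap in Per1, Cry1, Cry2, Nr1d1, Nr1d2 and Dbp and below it in Npas2, and the dashed line marks the dim yardstick of 10.61.

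Dbp encodes a transcription factor that binds D-boxes and is a direct output of the loop. Its probe read 17.67, 17.74, 17.78, 17.70 and 17.61 on the retina arrays, against 13.81, 13.80, 13.80, 13.90 and 13.81 on the cortex arrays. The groups lay 3.71 apart at their nearest values. In deposited units the medians were 179251 in retina and 16730 in cortex. The difference was 3.87 (SE 0.045, limma with Benjamini-Hochberg adjusted p = 3.17e-19), a 14.7-fold higher signal in retina with a 95% confidence interval of 13.7 to 15.7. This was larger in size than the difference of 98.1% of all probes.

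The REV-ERB genes encode nuclear receptors that bind heme and repress Arntl and other targets. Nr1d2 (REV-ERB beta) was at 14.19, 14.25, 14.39, 14.19 and 14.33 in retina, against 11.54, 11.29, 11.40, 11.61 and 11.55 in cortex. Every retina array was above every cortex array by at least 2.58. The difference was 2.79 (SE 0.077, limma adjusted p = 7.53e-15), or 6.92-fold. Nr1d1 (REV-ERB alpha) read 13.42, 13.44, 13.33, 13.22 and 13.22 in retina, against 12.38, 12.47, 12.35, 12.12 and 12.05 in cortex. These groups did not overlap either, but the gap was 0.76 and the difference 1.05 (SE 0.088, limma adjusted p = 1.98e-08), or 2.07-fold. Being close to the 2-fold minimum, Nr1d1 lost its call without cortex replicate 5 (0.997) and without normalization (0.66).

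The cryptochromes CRY1 and CRY2 are the main repressors of CLOCK and BMAL1 in mammals. Cry1 was at 13.87, 13.93, 14.02, 13.89 and 13.87 in retina, against 12.63, 12.61, 12.65, 12.75 and 12.67 in cortex. The SD was 0.07 in retina and 0.05 in cortex, so the spread was small beside the difference of 1.25 (SE 0.058, limma adjusted p = 7.98e-12). Cry2 was at 11.70, 11.28, 11.35, 11.40 and 11.36 in retina, against 10.20, 10.62, 10.80, 10.63 and 9.85 in cortex. Retina was above cortex on every array, with 0.48 between the nearest values, and the cortex mean of 10.42 lay under the dim yardstick. The size of this difference thus rests in part on signal not shown to lie above background. The difference of 1.00 (SE 0.19, limma adjusted p = 0.000226) met the 2-fold minimum by a small margin. It fell under it without retina replicate 1 (0.93), retina replicate 4 (0.998), cortex replicate 1 (0.95) or cortex replicate 5 (0.86), and with an offset of 50 before the log (0.97). Without normalization neither cryptochrome reached 2-fold, at 0.87 for Cry1 and 0.50 for Cry2.

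The PER proteins carry the cryptochromes into the nucleus and set the pace of the loop. Both Per probes were dim, with means below 10.61 in each tissue. Per1 was at 10.45, 10.41, 10.56, 10.50 and 10.36 in retina, against 10.17, 8.46, 7.82, 8.83 and 9.03 in cortex. The retina values were close together (SD 0.08) and the cortex values were scattered (SD 0.86), with cortex replicate 1 the highest of them. The difference was 1.59 (SE 0.36, limma adjusted p = 0.0012, 95% confidence interval 0.83 to 2.35). Per2 read 10.63, 9.66, 8.05, 8.96 and 9.44 in retina, against 8.20, 9.07, 8.99, 8.29 and 8.12 in cortex. These ranges overlapped, and Per2 was not called (0.82, SE 0.43, limma adjusted p = 0.141, 95% confidence interval -0.10 to 1.73). Without retina replicate 3, which read 8.05, Per2 would be called, at 1.15 (limma adjusted p = 0.0257).

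CLOCK and NPAS2 are the alternative partners of BMAL1, and NPAS2 is known for its expression in the forebrain. Npas2 was the member lower in retina. It read 8.51, 7.99, 9.16, 7.98 and 9.26 in retina, against 11.37, 11.24, 10.96, 11.30 and 11.02 in cortex. All retina values were in the dim range, while all cortex values were above 10.61, and the nearest values were 1.70 apart. The difference was -2.60 (SE 0.29, limma adjusted p = 7.87e-07), a 6.05-fold lower signal in retina, and since the retina side is dim, its size rests on signal not shown to lie above background. Clock was at 9.91, 10.40, 10.91, 9.96 and 10.99 in retina, against 10.72, 10.61, 10.26, 10.60 and 11.10 in cortex. Its groups overlapped around the yardstick and Clock was not called (-0.23, SE 0.25, limma adjusted p = 0.505). The 95% confidence interval of -0.75 to 0.30 does not reach a 2-fold difference in either direction under this scaling. The Clock mean in retina was in the dim range, so this interval bounds the signal and not the transcript level. Without normalization Clock was at -0.75 (limma adjusted p = 0.0215), short of 2-fold and not called.

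**Figure D2:**
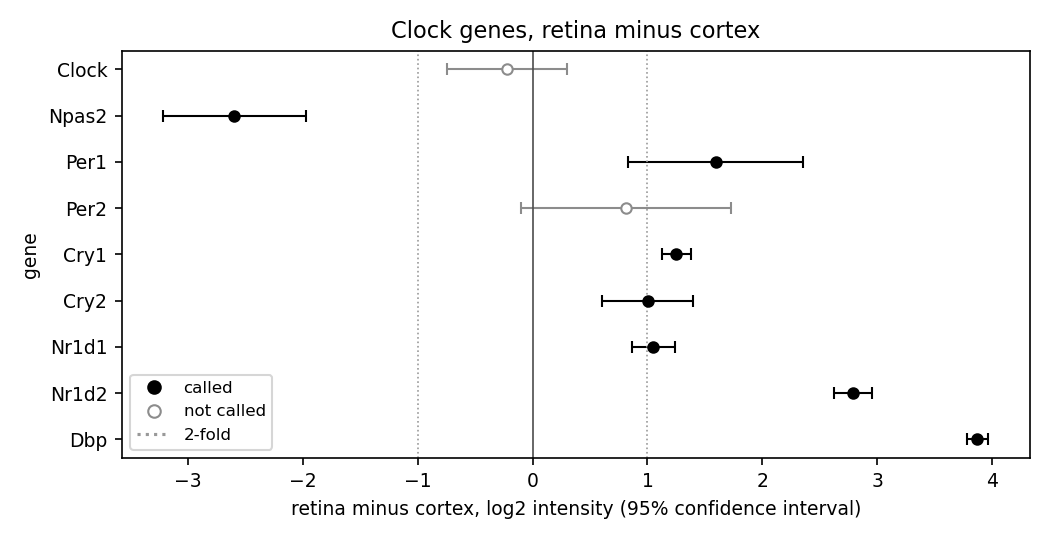
Points are retina minus cortex differences in log2 intensity for the 9 genes and bars their 95% confidence intervals from limma, with filled points for called genes and dotted lines at 2-fold. Dbp (3.87) and Nr1d2 (2.79) lie far to the right, Npas2 (-2.60) to the left, and Cry2 (1.00) and Nr1d1 (1.05) beside the 2-fold line.

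The size of the differences depended on scaling, while the order of the 9 genes by difference was the same under quantile normalization, median centring and no normalization. Before normalization the median difference of all probes was -0.41, so that values in retina were lower on the whole. On the deposited values Dbp was at 3.43, Nr1d2 at 2.35 and Per1 at 1.09, all 3 still called higher, and Npas2 was at -3.06 and still called lower. The count of higher members was then 3, against 6 after quantile normalization and 6 after median centring.

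**Figure D3:**
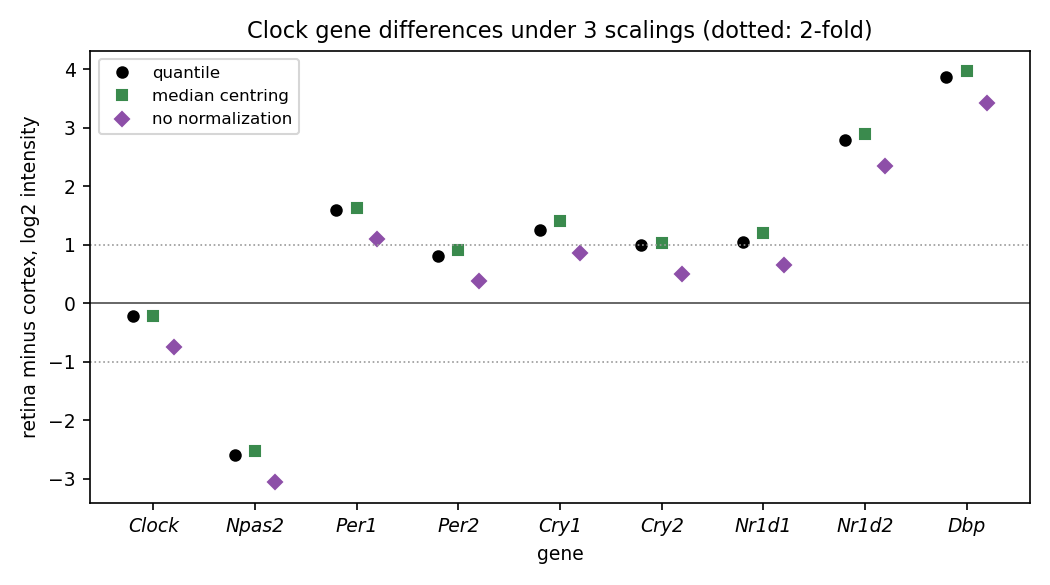
The vertical axis gives retina minus cortex in log2 intensity for the 9 genes, with quantile normalization as circles, median centring as squares and no normalization as diamonds. Each diamond lies below its circle, and Cry1, Cry2 and Nr1d1 cross the dotted 2-fold line at 1 between the settings.

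Paralogues were compared within arrays, where a factor shared by all probes of an array cancels but scaling that depends on intensity does not. The log2 value of 1 paralogue was subtracted from that of the other on each array, and an exact permutation test, 2-sided, set the tissue means of these values against all 252 assignments of the arrays. The levels themselves carry each probe's own brightness, so only the change between tissues is read. There were 4 pairs, and p-values were adjusted over them. Clock minus Npas2 lay between 1.40 and 2.41 in retina, against -0.70 to 0.08 in cortex. These did not overlap, and the difference of 2.37 gave p = 0.00794, the smallest possible, and an adjusted p = 0.0159 (exact permutation test). In retina the means of both probes were in the dim range, so the size of this difference rests on signal not shown to lie above background. Nr1d1 minus Nr1d2 lay between -1.10 and -0.77 in retina, against 0.50 to 1.18 in cortex. The difference of -1.74 had the same exact permutation p = 0.00794 and adjusted p = 0.0159, so the retina excess was 3.34-fold larger for Nr1d2 than for Nr1d1. Cry1 minus Cry2 differed by 0.25 and Per1 minus Per2 by 0.78, with overlapping groups and an adjusted exact permutation p = 0.31 for each. Without normalization the 4 differences were 2.31 (Clock and Npas2), -1.70 (Nr1d1 and Nr1d2), 0.37 (Cry1 and Cry2) and 0.72 (Per1 and Per2). For the cryptochromes the SD of the ratio was 0.20 in retina and 0.39 in cortex, and for the Per pair 1.00 in retina and 1.25 in cortex.

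**Figure D4:**
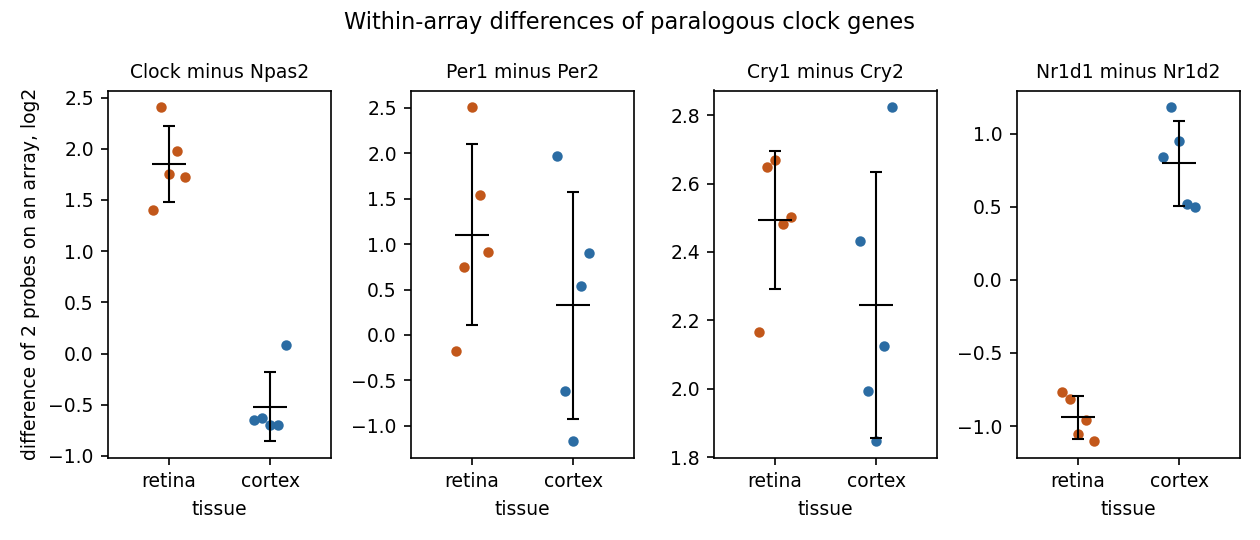
Each panel gives the log2 difference of a pair of paralogues on the 5 retina arrays, left, and the 5 cortex arrays, right, with black marks for mean and SD and a vertical axis of its own. Clock minus Npas2 is higher in retina (1.40 to 2.41) than in cortex (-0.70 to 0.08), Nr1d1 minus Nr1d2 is lower, and the other pairs overlap.

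Of 39 other genes listed for the clock pathway 27 were measured, and 7 were higher, 3 lower and 17 not called, with a median difference of -0.09. Among all probes 12.1% were higher and 13.3% lower, so the count of lower genes was near the background. Arntl, which encodes BMAL1, was at 15.03, 15.21, 15.32, 15.16 and 15.22 in retina, against 13.67, 13.65, 13.71, 13.80 and 13.70 in cortex. It did not overlap and was higher by 1.48 (SE 0.057, limma adjusted p = 5.86e-13). Its relative Arntl2 was dim in both tissues and at 0.18 (SE 0.36). Rora, a ROR receptor that activates Arntl, averaged 15.87 ± 0.04 in retina, against 12.59 ± 0.15 in cortex (SD, n = 5 each), and was higher by 3.29 (SE 0.066). It was the single ROR gene measured. Tef, a D-box activator of the same family as Dbp, was higher by 2.21 (SE 0.055). Nfil3, which represses at the same element, was at -0.68 (SE 0.054) with non-overlapping groups, short of 2-fold, and at -1.06 without normalization, where it would be called. Bhlhe40 (DEC1), an E-box repressor, was higher by 1.12 (SE 0.17), at 12.18 to 12.47 in retina and 10.73 to 11.73 in cortex. It was not called without normalization (0.68) or without cortex replicate 2 (0.9995). Bhlhe41 was dim in both tissues, at 0.61 (SE 0.27).

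Of the kinases that mark clock proteins for turnover or modify CLOCK and BMAL1, 6 were measured, and 2 of them were lower (13.3% of all probes), none higher and 4 not called. After quantile normalization the retina values of all 6 lay below the cortex values without overlap, where 40.5% of all probes did not overlap in either direction. With median centring Csnk1d was at -0.03 (limma adjusted p = 0.715) and Gsk3b at -0.12 (limma adjusted p = 0.173). Csnk1e, casein kinase 1 epsilon, which phosphorylates PER, ranged from 15.44 to 15.71 in retina, against 17.26 to 17.42 in cortex, and was lower (-1.82, SE 0.055, limma adjusted p = 2.81e-14). Csnk1d, its close relative, was at -0.19 (SE 0.053). Csnk2a1, a catalytic subunit of casein kinase 2, was lower by both of its probes, at -1.24 and -1.35. Csnk2a2, Prkaa2 (an AMP kinase subunit) and Gsk3b were at -0.56, -0.73 and -0.27, and the second probe of Gsk3b was at -0.77. Without normalization Prkaa2 would be called (-1.12). Of the ubiquitin ligase subunits that act on clock proteins, Fbxw11 was at -0.21 (SE 0.066) and Fbxl21 at -0.09 (SE 0.55), and the Fbxl21 probe was dim in both tissues.

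Among 7 measured accessory genes, 2 were higher, against 12.1% of all probes. Usp2, a deubiquitinase gene driven by the clock in many tissues, was at 15.07, 14.99, 14.88, 14.91 and 14.98 in retina, against 11.41, 11.74, 11.32, 11.40 and 11.61 in cortex. The difference of 3.47 (SE 0.079, limma adjusted p = 7.25e-16) lies between those of Nr1d2 and Dbp. Sirt1, a deacetylase of clock proteins, was higher by 1.24 (SE 0.075), but by 0.84 without normalization. Cipc, which encodes a protein that binds CLOCK, was at 0.88 (SE 0.11), Noct (nocturnin) at -0.34, Nono at -0.52 and Nampt at -0.69. Timeless was at 0.07 by its brighter probe and 0.49 by the other. In the list of retinal light input and clock output, 5 genes were measured. Drd4, the dopamine receptor gene of photoreceptors, averaged 17.76 ± 0.14 in retina, against 9.51 ± 0.57 in cortex (SD, n = 5 each), and was higher by 8.24 (SE 0.19), with cortex in the dim range. Adcyap1, which encodes the peptide PACAP of light-sensing ganglion cells, ranged from 10.43 to 11.48 in retina, against 12.27 to 12.44 in cortex, and was lower (-1.48, SE 0.15). Opn4 (melanopsin) and the melatonin receptor genes Mtnr1a and Mtnr1b were dim in both tissues and not called, at 0.76, 0.25 and -0.43.

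**Figure D5:**
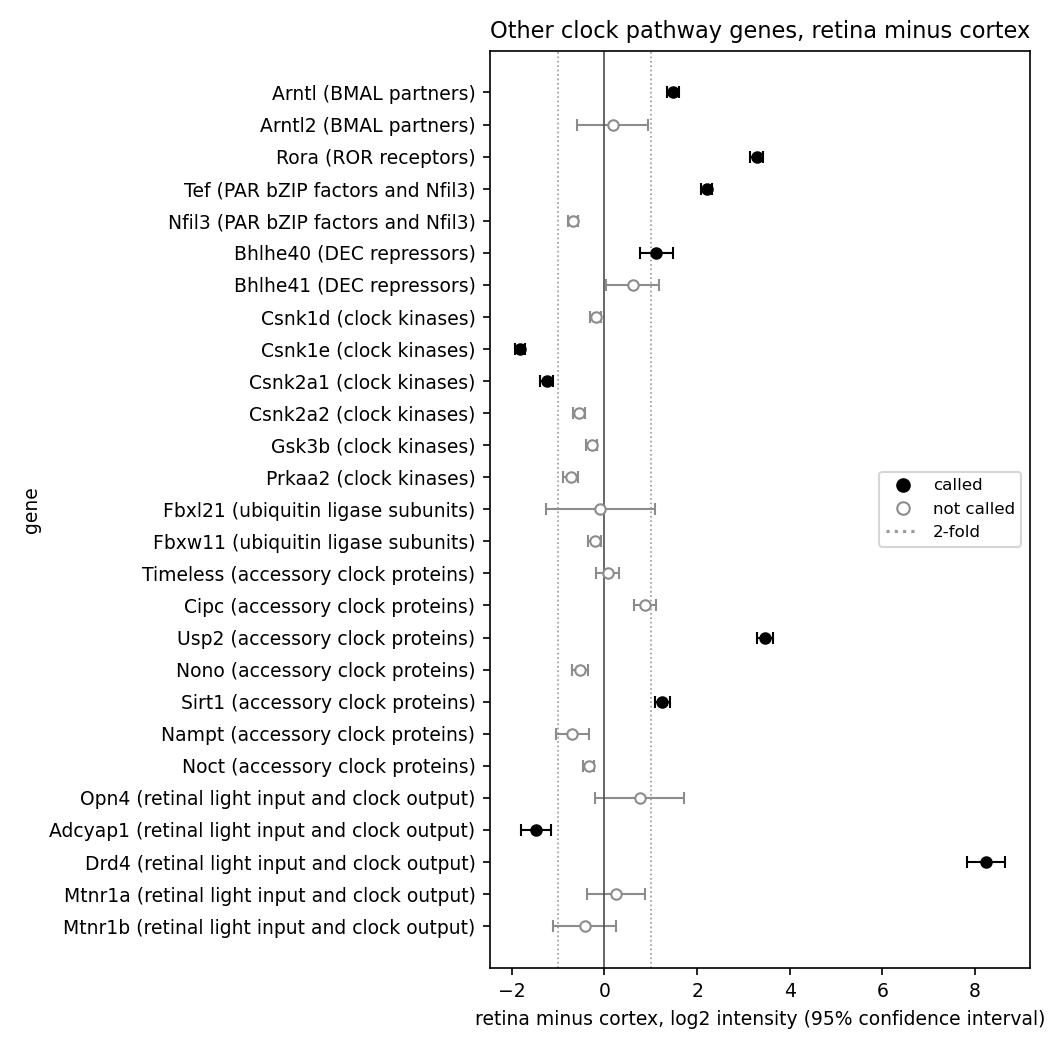
Points are retina minus cortex differences in log2 intensity with 95% confidence intervals for the 27 measured pathway genes, each with its role in brackets, filled where called. Drd4 (8.24), Usp2 (3.47), Rora (3.29) and Tef (2.21) lie to the right, and the 6 kinases lie left of 0.

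Genes with the most similar pattern were found for each called member by the root mean square distance between log2 values, centred per gene, over the 10 arrays. This measure follows the tissue difference and the repeat arrays together. For Dbp the nearest were Slc38a3 (0.077) and Tdrd7 (0.086), with differences of 3.84 and 3.95. Nr1d2 was followed most closely by Plekhb2 (0.084) and Rhot2 (0.091), Nr1d1 by Tmem179b (0.068) and Alkbh6 (0.072), and Cry1 by Map2k1 (0.046) and Vrk3 (0.050). Distances were wider for the dimmer probes. Cry2 had Pigh (0.157) and Mllt10 (0.181), Per1 had Ccdc77 (0.267) and Plcxd1 (0.286), and Npas2 had Capn3 (0.266) and Cks1b (0.306). Of these, Plcxd1 and Capn3 were dim in both tissues and Ccdc77 was dim in cortex, while Mllt10 was not called (0.88).

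Genes listed as markers of tissues that a dissection could carry along also differed between the pools. Whether the retina or cortex itself makes some of these transcripts was not tested, so they do not show such tissue in a pool. Of 4 measured genes each for pigment epithelium and lens, 3 were higher in retina in either list. The exceptions were Best1 of pigment epithelium (-0.14) and Mip of lens (0.03), dim in both tissues and not called. Summed over a list, the linear normalized intensity of pigment epithelium genes ranged from 86874 to 99945 in retina, against 895 to 1468 in cortex. That of lens genes ranged from 79954 to 95774 in retina, against 990 to 1655 in cortex. All 6 meninges and fibroblast genes were lower, summing to 11755 to 14129 in retina and 129624 to 136592 in cortex. So were all 3 measured genes of proliferating progenitors (596 to 1353 in retina, 25420 to 26075 in cortex) and both red cell genes (32887 to 40430 in retina, 123821 to 161246 in cortex). Of 3 pituitary genes, Gh and Pomc were lower and Prl was dim in both tissues. Of 4 choroid plexus genes Folr1, Kl and Clic6 were higher and Ttr was lower, but Kl was dim in both tissues and the Clic6 groups overlapped. No marker was listed at 0, and in cortex all measured pigment epithelium and lens markers were in the dim range. In retina Col3a1, Lum, Ogn, Alas2, Gh, Pomc and all 3 measured progenitor genes were dim. The size of those differences rests in part on signal not shown to lie above background. The part of such cells in the clock gene differences was not tested.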

How the data were processed

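Total RNA of the 2 pools was kept and extracted in TRIzol, and 1 µg was transcribed to digoxigenin-labelled cRNA, per the labels' protocols. The authors deposited linear intensity values for 33012 probes on 10 arrays, and how these were background-corrected and scaled was not given in the sources used here. Detection flags were not part of the analysis. Groups and replicate numbers came from the titles.

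Array medians spanned 0.682 on the log2 scale, above the tolerance of 0.1, so log2 intensities made from the deposited values were quantile-normalized. Of the probes, 14411 had 1 gene symbol in the platform annotation, 247 several and 18354 were not listed. The brightest probe stood for a gene. Tests used limma 3.58.1 in R 4.3.3 (lmFit, eBayes with trend, 2-sided, no covariates) with Benjamini-Hochberg adjustment over all probes, and SE are those of limma. The fit was tested on simulated data with few changed probes and the cortex spread in both groups. This did not test the scaling between tissues that differ as widely as these. The members, lists and dim yardstick were chosen with earlier results of these data known. Named are all members, the pathway genes and, per called member, the 2 nearest patterns. The number of arrays limits the precision.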

Additional observations from a re-analysis of the deposited data

Results flagged for a closer look

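Among the 9 measured clock genes and 27 pathway genes, each with 5 values per tissue, 3 of 72 sets of 5 had an array that stood apart from the other 4, where chance gives about 1 in 20. The Dbp probe read 13.90 on cortex replicate 4 and 13.80 to 13.81 on the other cortex arrays. The Csnk1e probe read 17.26 on the same array and 17.40 to 17.42 on the others. Mtnr1a, dim in both tissues, read 8.07 on cortex replicate 1 and 7.35 to 7.49 on the others.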

How the results depend on the processing

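No member difference changed sign under any setting run, and Dbp, Nr1d2, Npas2 and Per1 kept their calls under all in which they were tested; Per1, dim in both tissues, was left out by the filter on dim probes. Without normalization the clock members called were 4 (3 higher), the pathway genes lower 6, and all probes 2474 higher and 7621 lower, against 3987 and 4392. With no fold minimum all probes called were 15704 (7441 higher, 8263 lower), against 8379, and pathway genes 20 (12 lower). Leaving out single arrays gave 5 to 8 members called (4 to 7 higher, 1 lower), 9 to 11 pathway genes (6 to 8 higher, 3 lower) and 8280 to 8476 probes (3932 to 4049 higher, 4341 to 4427 lower). Paralogue differences then ranged from 2.22 to 2.52 for Clock and Npas2, 0.41 to 1.19 for Per1 and Per2, 0.15 to 0.39 for Cry1 and Cry2 and -1.82 to -1.64 for Nr1d1 and Nr1d2. Without the members dim in both tissues, a setting chosen after seeing the data, 6 were called. The offset, the filter on dim probes and a test against 1.5-fold also gave 6, median centring and a fit without the trend 7. Signs changed only among pathway genes not called: Arntl2 (-0.33), Timeless (-0.38) and Mtnr1a (-0.06) without normalization, Fbxl21 with median centring (0.026), and on leaving out single arrays Arntl2 (range -0.013 to 0.384, below 0 without cortex replicate 2) and Fbxl21 (range -0.504 to 0.318, above 0 without retina replicate 1, retina replicate 2 (0.13) or cortex replicate 3 (0.12)). Opn4 would be called without cortex replicate 3 (1.22) and Nampt without normalization (-1.17). The tissues share replicate numbers, but over all probes same-numbered arrays deviated together little (correlations -0.02 to 0.03). Retina replicates 1, 4 and 5 correlated best with the cortex array of their own number, and replicates 2 and 3 did not. A shared batch acting on part of the probes was not tested. With a replicate block, 7 members, 10 pathway genes and 8398 probes (4000 higher, 4398 lower) were called. Dim signal limits Clock, Npas2, Per1, Per2 and, on the cortex side, Cry2. The causes were not tested.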
